A study of Homo sapiens with 12 samples.

Results

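Lysosome and autophagy genes were examined in HL-60 cells, an established human acute myeloid leukaemia line. They were chosen by symbol, as 47 genes among the 58233 of the table: lysosomal enzymes and membrane proteins, subunits of the lysosomal proton pump, the TFEB family of transcription factors and autophagy genes. The study treated HL-60 cells, labelled wild type and grown in RPMI with 10% FCS, for 3 h with 100 nM all-trans retinoic acid (ATRA), a ligand of the retinoic acid receptors, with 500 nM palbociclib, which inhibits the cell cycle kinases CDK4 and CDK6, or with both (combination), and compared them with untreated cells. PolyA RNA was sequenced in 12 libraries, 3 per group, and expression is given in RPKM, which scales reads to the length of the gene and the size of the library, and which the authors rounded to whole numbers.

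Lysosomes degrade proteins, glycans and lipids that arrive by endocytosis or autophagy, with enzymes that need the acid set up by a proton pump in the lysosomal membrane. In autophagy, a double membrane coated with LC3 and GABARAP proteins closes around cytoplasm and fuses with the lysosome. TFEB, TFE3 and MITF bind E-box motifs near the start sites of many of these genes, and granulocytic cells hold lysosome-related granules filled with hydrolases.

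The letters that the TFEB family is known to bind can be read in the promoters of some of the genes. RefSeq promoters (build GRCh38.p14) could be matched for 35 of the 47 genes, and the 250 bases before the start site were searched on both strands for the E-box CACGTG, which reads the same on either strand. It was found in 8 of the 35 (22.9%), and in 6 of the 24 among them that were tested. Of the 5256 tested genes with a promoter, 12.4% held it. Of all 35116 promoters, counted singly and not by gene, 6.34% held it. The longer TCACGTGA, which contains the E-box, was found in 5 of the 35 (14.3%) and in 3 of the 24. It was found in 2.49% of the tested genes with a promoter and in 0.854% of all promoters. Of the shorter E-box CACGTG, LAMP1 held 5 matches, CTSA, GAA and MCOLN1 2 each and the remaining genes 1. For each of the 8 genes, 1 E-box is shown in capitals with its flanking bases, on the strand of the gene, since the results that follow are read against these letters. It is the match nearest to the start site, or for MCOLN1 the nearest with all flanking bases inside the window.
CTSA: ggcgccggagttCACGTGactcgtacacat
CTSD: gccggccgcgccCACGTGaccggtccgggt
LAMP1: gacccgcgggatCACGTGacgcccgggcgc
CD63: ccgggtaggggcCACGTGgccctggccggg
MCOLN1: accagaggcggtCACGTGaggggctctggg
ATP6V0D1: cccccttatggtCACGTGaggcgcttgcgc
NEU1: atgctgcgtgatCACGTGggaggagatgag
GAA: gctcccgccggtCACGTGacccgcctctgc
The stretch of CTSA lies at chr20:45891298-45891327, 25 bases before the RefSeq start site, and that of LAMP1 at chr13:113297199-113297228, 28 bases before it, both on the plus strand. CTSD has its E-box at chr11:1763957-1763986 on the minus strand and ATP6V0D1 at chr16:67481199-67481228 on the minus strand. Of the remaining 4, NEU1 (chr6:31862930-31862959) and CD63 (chr12:55729172-55729201) lie on the minus strand, and GAA (chr17:80101538-80101567) and MCOLN1 (chr19:7522571-7522600) on the plus strand. These are matches of letters, and binding was not measured.

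The labels of the treatments were checked on genes known to respond. DHRS3, a retinoid-inducible reductase, was at 0 or 1 RPKM in the libraries without ATRA and at 40 to 50 RPKM in those with ATRA, and HIC1, also a retinoid target, was at 0 and at 8 to 12 RPKM. CYP26A1, the retinoid-degrading enzyme, was listed at 0 in all 12 libraries. CCNE1, the cyclin E gene that E2F activates, was at 13 to 15 RPKM in untreated cells and at 5 RPKM in each palbociclib library, and E2F1 at 12 to 14 RPKM and at 4 or 5 RPKM. Both genes were also lower with ATRA alone, each at 9, 8 and 8 RPKM, so lower values were not particular to palbociclib. The myeloid gene MPO was at 1077 to 1579 RPKM and CD33 at 6 to 8 RPKM in the 12 libraries, whereas ELANE, also a promyelocyte gene, did not exceed 1 RPKM. Summed over 6 myeloid markers, of which none was at 0 in every library, the level was 1475 to 1688 RPKM in untreated cells, 1354 to 1547 RPKM with ATRA, 1623 to 1844 RPKM with palbociclib and 1372 to 1625 RPKM in the combination. Within that list CSF3R, the G-CSF receptor gene, was at 4 RPKM in each untreated library and at 8, 12 and 14 RPKM with ATRA. AZU1, a granule protein gene, was at 14, 13 and 13 RPKM untreated and at 22, 17 and 18 RPKM with ATRA. With palbociclib alone, CSF3R was at 5 RPKM in each library and AZU1 at 22, 16 and 18 RPKM. The mean of MPO went from 1346 RPKM untreated to 1133 RPKM with ATRA, and that of PRTN3 from 222 to 276 RPKM. The part of these shifts in the values of the lysosome and autophagy genes was not tested. Markers of erythroid, T, fibroblast, epithelial and megakaryocytic cells were all at 0, as was MS4A1 of B cells, and CD79A was at 1 RPKM in the 6 libraries with ATRA and at 0 in the others.

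In untreated cells, the transcripts of this set were unevenly spread. Of the 47 genes, 20 had a mean under 5 RPKM, 18 lay between 5 and 20 RPKM and 9 reached 20 RPKM or more. The highest level was that of PSAP, the precursor of the saposins that help enzymes to reach their lipid substrates, at 86, 99 and 90 RPKM. PPT1, which removes fatty acyl groups from proteins, followed at 67, 60 and 68 RPKM. The order continued with GRN, the progranulin gene (38, 45 and 38 RPKM), the tetraspanin gene CD63 (32, 34 and 36 RPKM) and CTSS, the cathepsin S gene (31, 34 and 33 RPKM), of which GRN lay above the others in each library, while CD63 and CTSS overlapped. LAMP2 and LAMP1, which code for the main glycoproteins of the lysosomal membrane, and CTSC, the gene of the dipeptidase that activates the serine proteases of granules, lay at 23 to 25 RPKM and could not be ordered, nor could ATP6V1B2, a subunit gene of the proton pump (24.0 ± 2.00 RPKM). At the other end, CD68, the macrophage marker macrosialin, and SGSH, a heparan sulphatase gene, were listed at 0 in all 12 libraries, WIPI1, an autophagosome scaffold gene, was listed at 0 in all but 1 combination library (1 RPKM), and MITF and CTSH, the cathepsin H gene, were at 1 RPKM throughout. In the annotation, 31 of the 47 genes overlap another gene. CD68 overlaps a non-coding gene on the same strand, and SGSH overlaps CARD14 and SLC26A11 on the opposite strand. Whether such overlaps lowered the listed values was not tested.

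Genes were tested where at least 3 libraries reached 5 RPKM. This left 33 of the 47 genes and 7820 genes of the whole table, and 2 of the 33, GABARAPL1 and SQSTM1, passed only through libraries with ATRA. Tests were made with limma on log2(RPKM + 0.1), a scale that understates the change of low genes, with p-values adjusted by Benjamini-Hochberg over the 7820 genes and called under 0.05. The labels number the replicates without saying whether they were separate cultures, so the p-values measure the spread between these libraries, which may be technical. The depth of each library is unknown from the RPKM values.

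After 3 h of ATRA, lysosomal and autophagy transcripts were higher in several roles but not in all. Of the members kept by their mean over the 12 libraries, GRN and CTSZ (cathepsin Z) rose most, by over 2-fold, followed by CTSB (cathepsin B) and PSAP. Of the 33 tested genes, 13 were called higher (39.4%), where 8.71% of all tested genes were, and 1, CTSC, was called lower, where 11.6% of all tested genes were. The list was chosen with earlier results of these data known. Of the 13, GABARAPL1 and SQSTM1 passed the filter only through libraries with ATRA. Counts of members set beside all tested genes, here and below, are therefore a description and not a test of the set. Under an adjusted p of 0.001, 5 members remained, GRN, CTSZ, CTSA, CTSB and PSAP, against 2.77% of all tested genes. The untreated and ATRA libraries did not overlap, with ATRA above, for 12 of the 33 (12.4% of all tested genes), and did not overlap, with ATRA below, for CTSC alone (17.3% of all tested genes). The median log2 fold change was 0.19 over the 33 genes and -0.012 over all tested genes. When genes were kept by their mean over the 12 libraries instead, 29 members remained, of which 11 were called higher, with a median of 0.16. The share of all genes called under that filter is not given here, so these 11 cannot be set against the 8.71%. The count of 13 depended on single libraries, as it was 7 without untreated replicate 1 or without ATRA replicate 3, and 8 without ATRA replicate 2. In RNA from whole cultures, fewer cells with a transcript and less of it per cell cannot be told apart.

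**Figure D1:**
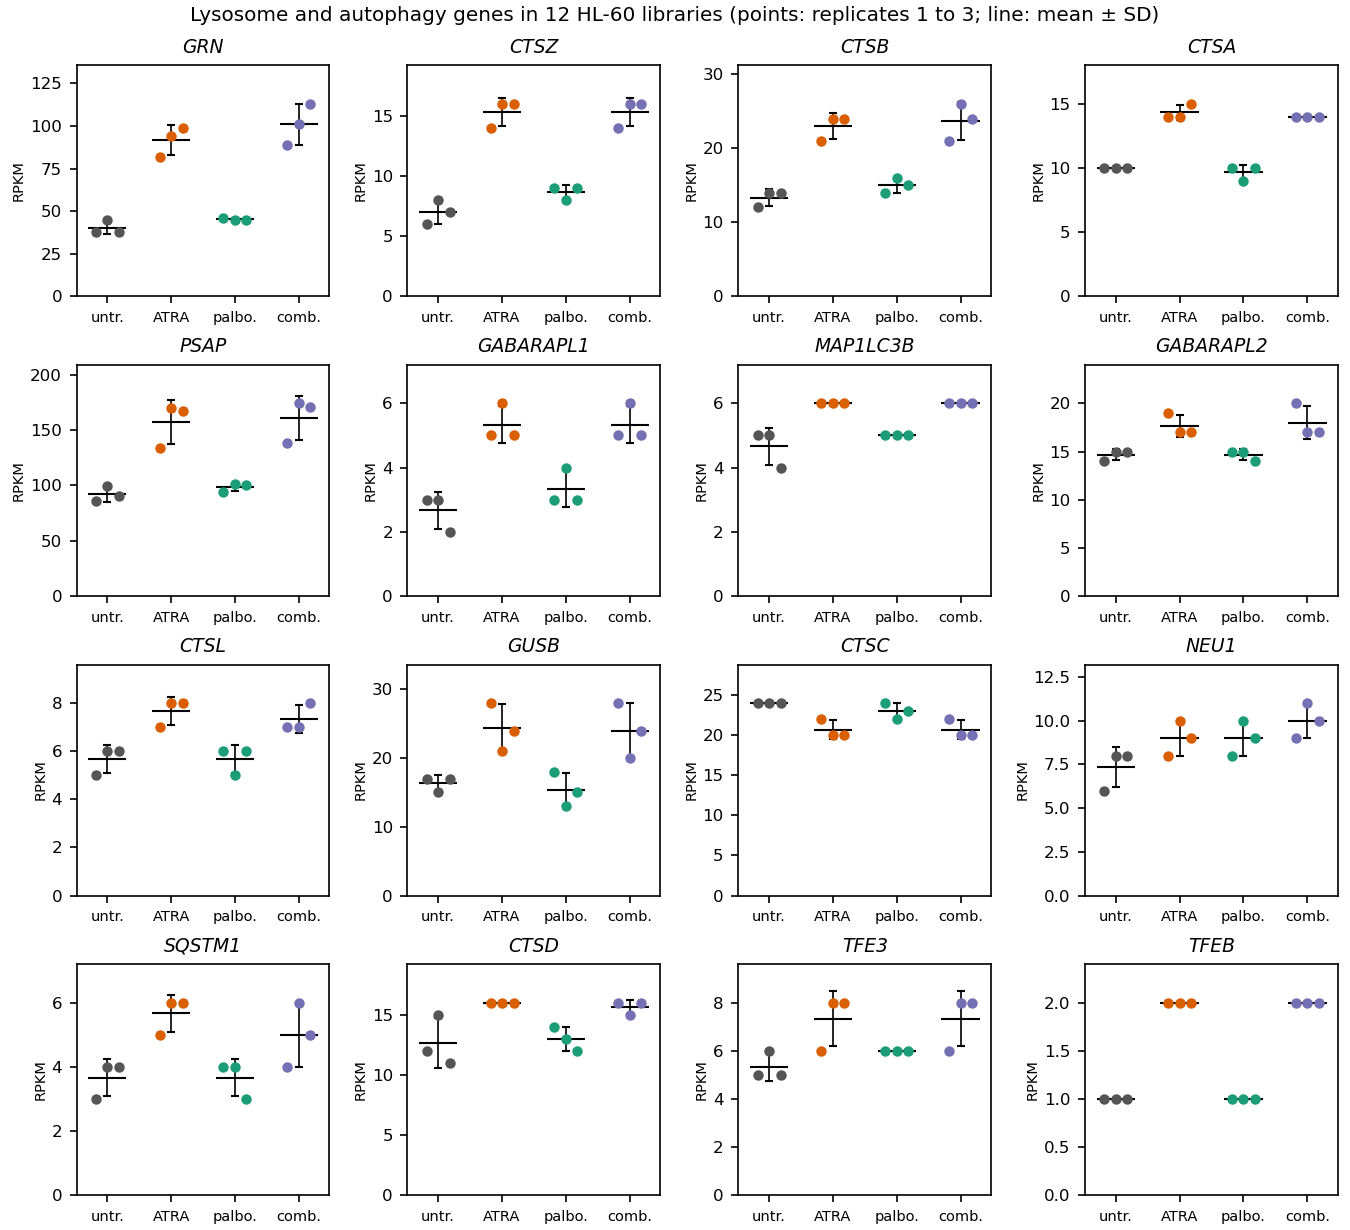
RPKM (vertical axes, from 0) of 16 lysosome and autophagy genes in untreated cells (untr.) and with ATRA, palbociclib (palbo.) or the combination (comb.). Points are replicates 1 to 3 from left to right, and lines show the mean ± SD. For GRN, CTSZ, CTSA, CTSB and PSAP the ATRA and combination libraries lie above all untreated and palbociclib libraries, while CTSC is at 24 RPKM in untreated cells and at 20 to 22 RPKM with ATRA.

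The progranulin and saposin genes made up most of the summed difference in level, at 132 RPKM together in untreated cells and 249 RPKM with ATRA. GRN (chromosome 17, 44345246 to 44353106, GRCh38) codes for progranulin, a secreted protein that is cut into granulins in the lysosome. It was at 38, 45 and 38 RPKM in untreated cells and at 82, 94 and 99 RPKM with ATRA, with no overlap. Its mean went from 40.3 ± 4.04 to 91.7 ± 8.74 RPKM (SD, n = 3), a rise of 2.27-fold with a 95% interval of 1.95 to 2.65 (log2 fold change 1.18, SE 0.10, limma adjusted p = 1.92e-05). PSAP (chromosome 10, 71816298 to 71851251), whose product binds progranulin and is cut into saposins, was at 86, 99 and 90 RPKM and at 134, 170 and 167 RPKM. ATRA replicate 1 was the lowest of the 3, but still above each untreated library. The rise of PSAP was 1.71-fold (1.44 to 2.02; log2 fold change 0.77, SE 0.11, limma adjusted p = 0.00066). Summed over the 47 genes, the level was 603 ± 18.3 RPKM in untreated cells and 775 ± 38.8 RPKM with ATRA. Without GRN and PSAP the sums were 471 ± 10.6 and 526 ± 12.1 RPKM.

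The other lipid enzymes and cofactors did not share this. Of the 5 tested genes of this role, GRN and PSAP were called, and PPT1 (67, 60 and 68 RPKM untreated against 64, 59 and 59 RPKM with ATRA), LIPA, the lysosomal acid lipase gene (8 to 10 RPKM in all libraries), and ASAH1, the acid ceramidase gene (4 or 5 RPKM), were not. Their log2 fold changes lay between -0.10 and -0.056, and the lower interval bounds of the folds were 0.842 for PPT1, 0.827 for LIPA and 0.745 for ASAH1. NPC2, which hands cholesterol to the membrane, was too low for the test, at 1, 2 and 2 RPKM untreated and 2, 3 and 3 RPKM with ATRA.

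Among the cathepsins and peptidases, 5 of 8 tested genes were called higher with ATRA (8.71% of all tested genes) and 1 lower (11.6% of all tested genes). CTSZ (chromosome 20, 58985686 to 59008238), a carboxypeptidase, was at 6, 8 and 7 RPKM in untreated cells and at 14, 16 and 16 RPKM with ATRA. The rise was 2.18-fold (1.85 to 2.57; limma adjusted p = 3.95e-05). CTSB, an endopeptidase and dipeptidase, went from 12, 14 and 14 RPKM to 21, 24 and 24 RPKM, or 1.72-fold (1.48 to 2.00; limma adjusted p = 0.000264). CTSA (chromosome 20, 45890144 to 45898949), the protective protein that keeps β-galactosidase and neuraminidase stable, was at 10 RPKM in each untreated library and at 14, 14 and 15 RPKM with ATRA, a rise of 1.43-fold (1.31 to 1.56; limma adjusted p = 0.000125). In none of these 3 genes did the groups overlap. CTSA overlaps PLTP and NEURL2, and CTSZ overlaps NELFCD, on the opposite strand in the annotation. Counting used default settings, but the sources used here do not state whether the libraries kept strand. Whether reads in the shared stretches went to the right gene is therefore unknown.

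Smaller rises were seen for CTSL and CTSD, and a fall for CTSC. CTSL, the cathepsin L gene, was at 5, 6 and 6 RPKM untreated and 7, 8 and 8 RPKM with ATRA (log2 fold change 0.43, limma adjusted p = 0.0156). The aspartic protease gene CTSD was at 12, 15 and 11 RPKM and at 16 RPKM in each ATRA library (log2 fold change 0.35, limma adjusted p = 0.0337). The closest libraries of both groups were 1 RPKM apart in either gene, which is the rounding step. CTSD also overlaps an unnamed coding gene of the annotation on the same strand. CTSC (chromosome 11, 88265069 to 88359684) was at 24 RPKM in each untreated library and at 22, 20 and 20 RPKM with ATRA, 0.861 of the untreated level (0.785 to 0.944; log2 fold change -0.22, limma adjusted p = 0.028). The call of CTSC was lost when libraries were centred on their median (adjusted p = 0.234) and when any untreated library, ATRA replicate 2 or ATRA replicate 3 was left out (0.0659 to 0.102), and it held in 13 of 19 alternative settings. That of CTSD was lost without untreated replicates 1 or 3 or any ATRA library (0.0688 to 0.116), and that of CTSL without untreated replicate 1, ATRA replicate 2 or ATRA replicate 3 (0.0616 to 0.0629). CTSS, at 31, 34 and 33 RPKM and at 30, 35 and 33 RPKM with ATRA, had a fold of 0.999 with an interval of 0.873 to 1.14. TPP1, a tripeptidyl peptidase gene, was at 11, 12 and 12 RPKM and at 12, 16 and 18 RPKM with ATRA, with a wide interval (0.971 to 1.73) and no call, but was called with the replicate number as a block (limma adjusted p = 0.0117). CTSH stayed at 1 RPKM.

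Of the 5 tested autophagy genes, 4 were called higher with ATRA (8.71% of all tested genes) and none lower (11.6% of all tested genes). Of these 4, 3 code for LC3 or GABARAP proteins of the autophagosome membrane. GABARAPL1 and SQSTM1 passed the filter only through libraries with ATRA, so the filter in part fixed the count of 4. GABARAPL2 and MAP1LC3B were the members of this role that a filter on the mean of the 12 libraries kept. GABARAPL1 (chromosome 12, 10212458 to 10223128) was at 3, 3 and 2 RPKM in untreated cells and at 5, 6 and 5 RPKM with ATRA, or 1.99-fold (1.52 to 2.60; limma adjusted p = 0.00255). Rounding by up to 0.5 RPKM alone would let the ratio of its means, 2.00, lie between 1.53 and 2.69. MAP1LC3B, the gene of LC3B, the usual marker of autophagosomes, went from 5, 5 and 4 RPKM to 6 RPKM in each ATRA library (log2 fold change 0.36, limma adjusted p = 0.0136). GABARAPL2 was at 14, 15 and 15 RPKM and at 19, 17 and 17 RPKM (log2 fold change 0.27, limma adjusted p = 0.0323), and here ATRA replicate 1 was the highest of the 3. SQSTM1, the gene of the cargo receptor p62, was at 3, 4 and 4 RPKM and at 5, 6 and 6 RPKM (log2 fold change 0.62, limma adjusted p = 0.0302). In none of these 4 genes did the groups overlap. The closest libraries of both groups were 1 RPKM apart for MAP1LC3B and for SQSTM1, which is the rounding step. Rounding lets the ratio of means be as low as 1.06 for MAP1LC3B and 1.24 for SQSTM1. The call of GABARAPL2 was lost without any 1 of the 6 untreated and ATRA libraries (adjusted p 0.0554 to 0.112) and with centred libraries (0.0796), and that of SQSTM1 without untreated replicate 1 or ATRA replicates 2 or 3 (0.0966 to 0.12). SQSTM1 overlaps MGAT4B and MRNIP, and MAP1LC3B overlaps FBXO31, on the opposite strand.

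The remaining autophagy genes had low levels. ATG9A, which codes for the membrane protein that supplies lipid to the forming autophagosome, was at 4 RPKM in each untreated library and had a mean of 4.67 ± 0.577 RPKM with ATRA (fold interval 0.917 to 1.46). ULK1, the kinase that starts autophagy, stayed below the filter at 2, 2 and 1 RPKM untreated and 3, 4 and 4 RPKM with ATRA, without overlap. With a filter of 1 RPKM its log2 fold change was 1.14 (limma adjusted p = 0.012), and rounding lets the ratio of means, 2.20, range from 1.46 to 3.57.

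Within the TFEB family, TFE3 was called higher with ATRA, TFEB was 1 rounding step higher and MITF was at 1 RPKM in all 12 libraries. TFEB (chromosome 6, 41683978 to 41736259) was at 1 RPKM in each of the 6 libraries without ATRA and at 2 RPKM in each of the 6 with ATRA. As these values are rounded to whole RPKM, the ratio of 2.00 could lie anywhere from 1 to 5, and the gene was not tested. TFE3 (chromosome X, 49028726 to 49043410) was at 5, 6 and 5 RPKM untreated and at 6, 8 and 8 RPKM with ATRA, which touch at 6 RPKM. It was called higher at the margin of the threshold (1.36-fold, 1.10 to 1.69; log2 fold change 0.44, limma adjusted p = 0.0467). The call held in 7 of 19 alternative settings and was lost, among others, without untreated replicates 1 or 3 or ATRA replicates 2 or 3 (adjusted p 0.128 to 0.153).

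Of the 6 tested genes of glycan-degrading enzymes, GUSB alone was called with ATRA, where 8.71% of all tested genes were called higher. It codes for β-glucuronidase and is often used as a reference gene. GUSB (chromosome 7, 65960684 to 65982215) was at 17, 15 and 17 RPKM untreated and at 28, 21 and 24 RPKM with ATRA (1.48-fold, 1.18 to 1.86; limma adjusted p = 0.0225). Its ATRA libraries spread over 7 RPKM, with replicate 1 the highest, the reverse of GRN and PSAP, and the call was lost without untreated replicates 1 or 2 or ATRA replicates 1 or 3 (adjusted p 0.0556 to 0.0827). NEU1, the sialidase that works with CTSA, was at 6, 8 and 8 RPKM and at 8, 10 and 9 RPKM (log2 fold change 0.30, limma adjusted p = 0.15), and was called with the replicate number as a block (adjusted p = 0.0041). GLA and GLB1, the α- and β-galactosidase genes, MAN2B1, an α-mannosidase gene, and NAGLU, which degrades heparan sulphate, had log2 fold changes of 0 to 0.19. GAA, HEXA, MANBA and SGSH did not reach the filter, and the first 3 stayed between 1 and 4 RPKM in every library.

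**Figure D2:**
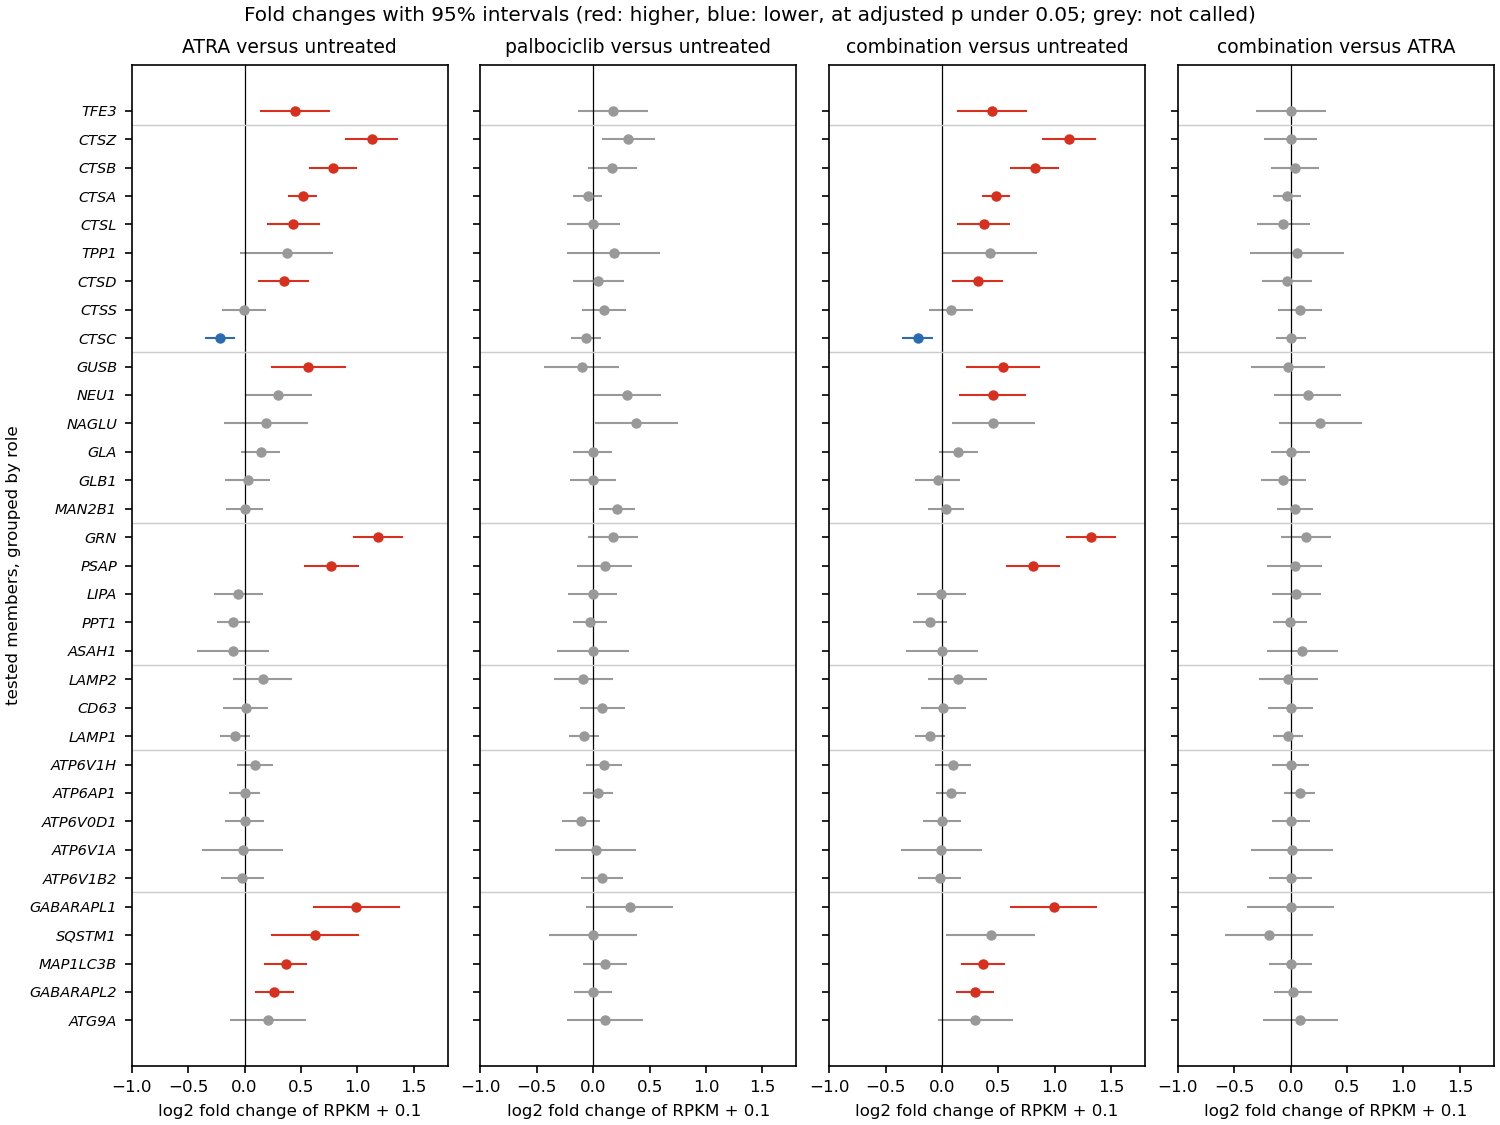
Log2 fold changes of RPKM + 0.1 (horizontal axes) for the 33 tested genes, grouped by role between grey lines, in 4 comparisons. Points are estimates and bars 95% intervals of limma, in red where called higher, blue where called lower and grey where not called, at an adjusted p under 0.05. The membrane and proton pump genes lie around 0 in each panel, and no gene is called between the combination and ATRA.

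The membrane proteins and the proton pump did not pass the test in either direction with ATRA. LAMP1 (chromosome 13, 113297239 to 113323672) was at 24, 24 and 23 RPKM untreated and at 23, 21 and 23 RPKM with ATRA (fold interval 0.859 to 1.04). LAMP2 was at 25, 24 and 24 RPKM and at 24, 29 and 29 RPKM (0.932 to 1.34), and CD63 at 32, 34 and 36 RPKM and at 37, 31 and 35 RPKM (0.879 to 1.16). MCOLN1, the calcium channel of the lysosome, was at 2 RPKM in each untreated library and at 2, 3 and 3 RPKM with ATRA, and NPC1, the cholesterol exporter, at 3 to 4 RPKM in all libraries, both below the filter. For the pump, the 5 tested genes (ATP6V0D1, ATP6V1A, ATP6V1B2, ATP6V1H and the accessory subunit ATP6AP1) had a median log2 fold change of 0. The largest interval was that of ATP6V1A, from 0.771 to 1.27 in fold. Summed over the 6 listed pump genes, the level was 65, 71 and 72 RPKM untreated and 66, 71 and 72 RPKM with ATRA.

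Among the 24 tested genes with a matched promoter, those with an E-box in the stretch searched were not those that rose most. PSAP and CTSB, which were among the genes that rose most, had no matched promoter, so their letters were not read. Of the 6 tested genes with an E-box shown above, CTSA and CTSD were called higher with ATRA (8.71% of all tested genes). LAMP1, CD63, ATP6V0D1 and NEU1 were not called. Of the tested genes with a matched promoter and no such letters, 9 were called higher, among them GRN, CTSZ and GABARAPL1, 1 was called lower and 8 were not called. GABARAPL1 and SQSTM1, both among these 9, passed the filter only through libraries with ATRA.

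With palbociclib alone, no gene of the set passed the test. None of the 33 genes was called by limma at an adjusted p under 0.05 in either direction, where 0.908% of all tested genes were called higher and 3.16% lower. At an unadjusted p under 0.05, 4 were higher and 0 lower: CTSZ, MAN2B1, NAGLU and NEU1. MAN2B1 had the lowest adjusted p of the set, 0.141, with a fold of 1.16 (1.04 to 1.30). NEU1 was at 6, 8 and 8 RPKM untreated and at 8, 10 and 9 RPKM with palbociclib, and NAGLU at 5, 4 and 4 RPKM and at 6, 5 and 6 RPKM, and both pairs of groups shared a value. The ranges of GRN, 38 to 45 RPKM untreated and 45 to 46 RPKM with palbociclib, met at 45 RPKM (fold interval 0.967 to 1.31). Of the 33 intervals, 28 lay within a log2 fold change of -0.5 to 0.5. With the replicate number as a block, 3 genes, CTSB, NAGLU and NEU1, were called higher (limma adjusted p 0.0285, 0.0208 and 0.0117). The share of all tested genes called with the block is not given here. Under the other alternatives CTSB and NEU1 were not called.

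In the combination, GRN, CTSZ, CTSB, CTSA and PSAP were again the genes with the lowest adjusted p. Against untreated cells 13 genes were called higher (12.7% of all tested genes) and 1, CTSC, lower (17.7% of all tested genes), and 5 passed an adjusted p of 0.001 (3.76% of all tested genes). The untreated libraries are the same as for ATRA alone. GRN was at 89, 101 and 113 RPKM in the combination, or 2.50-fold (2.14 to 2.91; limma adjusted p = 6.64e-06), and PSAP at 138, 174 and 171 RPKM, or 1.75-fold (1.48 to 2.07; adjusted p = 0.000316). CTSZ was at 14, 16 and 16 RPKM, the same rounded values as with ATRA alone, CTSA at 14 RPKM in each library and CTSB at 21, 26 and 24 RPKM. GABARAPL1 (5, 6 and 5 RPKM), MAP1LC3B (6 RPKM in each) and TFEB (2 RPKM in each) also had the values of ATRA alone. SQSTM1, which was called with ATRA, was at 4, 6 and 5 RPKM and was not called in the combination (log2 fold change 0.43, limma adjusted p = 0.0919), though it was with the replicate block (adjusted p = 0.041). NEU1 was at 9, 11 and 10 RPKM and was called (log2 fold change 0.45, adjusted p = 0.0277), as in 13 of 19 alternative settings. The count of 13 was 8 without untreated replicate 1 or combination replicate 3, and the call of CTSC was lost with centred libraries (adjusted p = 0.298) and without untreated replicates 1 or 3 or combination replicates 2 or 3 (0.0501 to 0.0677).

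No difference passed the test for any of the 33 genes when palbociclib was added to ATRA. None was called by limma, higher (0% of all tested genes) or lower (0.115%). At an unadjusted p under 0.05 there were 0 in each direction in this model, which does not pair the libraries. The log2 fold changes ran from -0.19 for SQSTM1 to 0.26 for NAGLU, with a median of 0 both for the set and for all tested genes. Of the 33 95% intervals, 31 lay within -0.5 to 0.5, and the 2 that did not were those of NAGLU (-0.11 to 0.63) and SQSTM1 (-0.58 to 0.20). For GRN the fold between the combination and ATRA was 1.10 (0.943 to 1.28), for PSAP 1.03 (0.867 to 1.21) and for CTSZ 1.00 (0.849 to 1.18). With the replicate number as a block, which paired the treated libraries, the log2 intervals of NAGLU (0.071 to 0.457) and NEU1 (0.021 to 0.282) lay above 0. These intervals are not adjusted for the number of genes, and no gene of the set was called with the block. The departure from additivity (the palbociclib effect in ATRA-treated cells less that in cells without ATRA) called none of the genes higher (0% of all tested genes) or lower (0% of all tested genes). In the model without the block, 0 of the 33 reached an unadjusted p under 0.05 in either direction, and CTSZ had an estimate of -0.31 (SE 0.15). With the block, the 95% interval of CTSZ was -0.604 to -0.020, and no gene of the set was called.

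The effect of ATRA was also read in cells given palbociclib, from libraries that the first comparison did not use. These libraries were not independent of the first ones, since ATRA and combination libraries of the same number deviated together from their group means (r 0.782 to 0.908 over genes). Against palbociclib, the combination had 9 genes called higher (5.86% of all tested genes), 3 of them at an adjusted p under 0.001 (2.11% of all tested genes), and 0 called lower (6.64% of all tested genes). They were GRN, CTSZ, CTSA, PSAP, CTSB, GUSB, GABARAPL1, GABARAPL2 and CTSL. The call of CTSL (limma adjusted p = 0.0476) held in 6 of 19 alternative settings, that of GABARAPL1 in 11 of 18 and that of GABARAPL2 in 13 of 19, and the last was lost with centred libraries (adjusted p = 0.128). GRN was at 46, 45 and 45 RPKM with palbociclib and at 89, 101 and 113 RPKM with both, 2.21-fold (1.90 to 2.58; limma adjusted p = 2.72e-05). CTSZ was at 9, 8 and 9 RPKM against 14, 16 and 16 RPKM (1.76-fold, 1.49 to 2.07), and GABARAPL1 at 3, 4 and 3 RPKM against 5, 6 and 5 RPKM (1.59-fold, 1.22 to 2.08). The 13 genes called higher with ATRA alone had positive log2 fold changes here in 13 of 13 cases and were called in 9 (69.2%), where 98.2% of all genes called higher with ATRA alone were positive and 61.5% were called. Their median was 0.56 in the first comparison and 0.53 in the second. Across the 33 genes, the log2 fold changes of both comparisons had a Pearson's r of 0.961, and across all 7820 tested genes 0.937, as a description over genes, which are not independent replicates. With the replicate number as a block, which paired the treated libraries, the counts were 10 higher and 1 lower, with MAP1LC3B (limma adjusted p = 0.0451) and CTSC (0.0248) added. No share of all tested genes is given for that model. The count of 9 was 5 without palbociclib replicate 3.

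**Figure D3:**
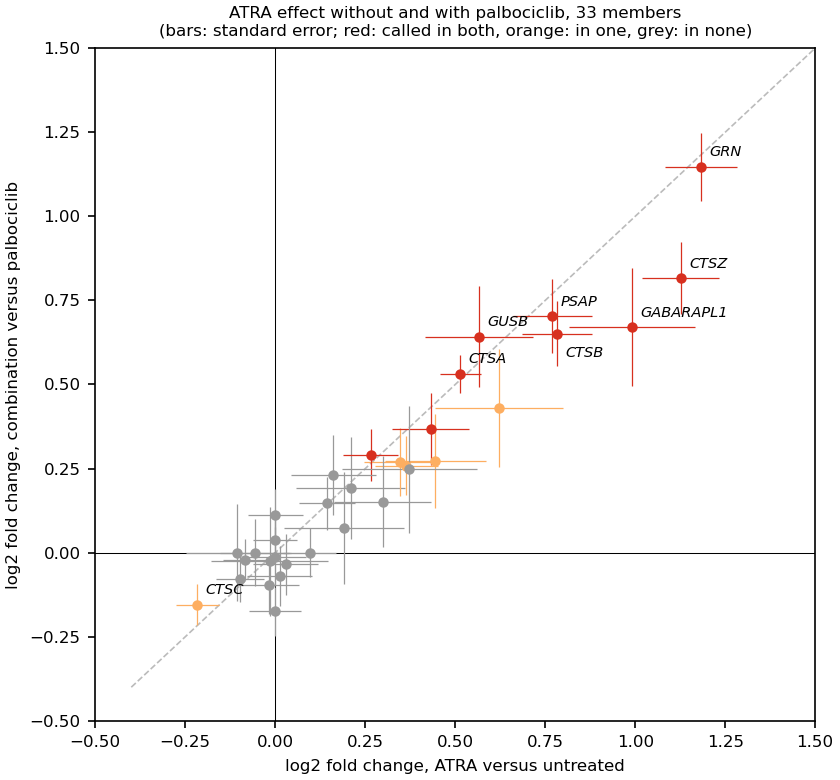
Log2 fold change of RPKM + 0.1 for ATRA against untreated cells (horizontal axis) and for the combination against palbociclib (vertical axis) in the 33 tested genes; the comparisons share no library. Bars are standard errors, the dashed line marks equal values, and colours mark genes called in both (red), one (orange) or none (grey). The points follow the line (r = 0.961), with GRN at 1.18 and 1.15 and CTSC at -0.22 and -0.15.

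Other genes of the same organelle and pathway were read from a further list of 106 symbols, of which 105 were in the table and 58 were tested. With ATRA, 10 of the 58 were called higher (17.2%, against 8.71% of all tested genes) and 1 lower (11.6% of all tested genes), with a median log2 fold change of 0.054. Other lysosome genes were called in 6 of 18 cases, all higher, led by FUCA1, the lysosomal fucosidase gene (means of 5 and 9.33 RPKM, log2 fold change 0.87), and TPCN1, a cation channel gene (0.75). Other autophagy genes were called higher in 4 of 23 cases, namely ATG2A, which transfers lipid to the autophagosome (means of 3 and 6 RPKM, log2 fold change 0.96), ATG4D, a protease that processes LC3 proteins (0.57), the cargo receptor gene NBR1 (0.57) and ATG13 (0.29), and UVRAG, a partner of Beclin, fell by 0.41 on the log2 scale. ATG13 and UVRAG were named after their values were seen. ATG2A, with an untreated mean of 3 RPKM, could not pass the filter through untreated libraries alone. How many of the 58 genes passed only through treated libraries was not counted, so the 17.2% is a description. None of 8 further proton pump genes and none of 9 genes of nutrient sensing at the lysosome was called with ATRA.

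With palbociclib, 1 of the 58 was called higher (0.908% of all tested genes) and 1 lower (3.16%). ATG2A was higher (log2 fold change 0.61, limma adjusted p = 0.029), and RRAGD, a Rag GTPase gene that links amino acids to mTORC1, was lower (log2 fold change -0.67, limma adjusted p = 0.0426). The limit from the filter given for ATG2A above holds here too. Against untreated cells, the combination had 13 called higher (12.7% of all tested genes) and 3 lower (17.7%), with ATG2A at 1.12 and FUCA1 at 0.97, TPCN1 at 0.91, NBR1 at 0.74 and ATG4D at 0.57 on the log2 scale. Against palbociclib it had 6 higher (5.86% of all tested genes) and 1 lower (6.64%), led by TMEM41B (0.61), and against ATRA 0 in either direction.

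**Figure D4:**
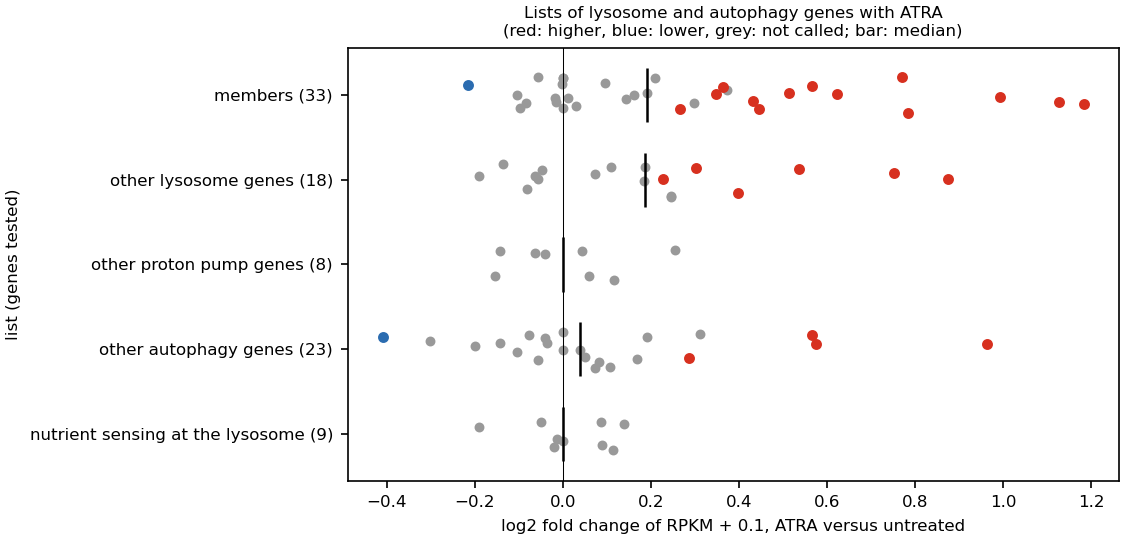
Log2 fold change of RPKM + 0.1 with ATRA against untreated cells (horizontal axis) for the 33 tested genes and for 4 further lists (vertical axis, with the number of genes tested). Each point is a gene, red where called higher, blue where called lower and grey where not called, and black bars are medians. The red points lie in the main set and in the other lysosome and autophagy lists, and none in the other proton pump or nutrient sensing lists.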

How the data were processed

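The authors made polyA libraries (TruSeq), aligned the reads to hg38 by HISAT2, obtained gene counts from htseq-count with default settings and deposited RPKM values rounded to whole numbers, which were treated here as a score with a step of 1 RPKM and not as counts. The sources used here do not give the depth per library, so no counting error is stated. Values summed to 358455 to 390247 RPKM per library.

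Groups and replicate numbers came from the labels. The log2(RPKM + 0.1) values of all 12 libraries entered a linear model of the 4 group means in limma 3.58.1 (eBayes with a variance trend) in R 4.3.3, for genes with at least 5 RPKM in at least 3 libraries, with Benjamini-Hochberg adjustment within each of 6 comparisons. The threshold of 0.05 follows the significance level of the study. Tables and figures were made with Python 3.11.15, and the script was tested on simulated data. The design had assumed RPKM with decimals, and the same test was kept.

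The members and lists were chosen with earlier results of these data known. Values are given per library for members called in any comparison and for TFEB, TFE3, MITF, MCOLN1, LAMP1, SQSTM1 and MAP1LC3B, and up to 5 called genes of the further list are named per comparison. Some genes of the lists are not reported here by name. Coordinates are those of GENCODE 44 on GRCh38, matched by Ensembl identifier for 47 of 47 genes, and promoters are those of RefSeq.

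Same-numbered treated libraries deviated together from their group means (r 0.438 to 0.908 over genes), so the numbers were taken to pair them. Between untreated and treated libraries r was 0.0453 to 0.367. Alternatives were a pseudocount of 1, a filter at 1 RPKM or none, centred libraries, the replicate block, only the groups compared, an adjusted p under 0.001, leaving out each library, and, added after seeing the data, a filter on the mean of the 12 libraries.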

Additional observations from a re-analysis of the deposited data

How the results depend on the processing

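No call of a member changed sign under any alternative, whereas estimates near 0 that were not called did. Of 37 calls of members over the comparisons, 37 held with a pseudocount of 1, 37 with the replicate block (10 more were gained), 33 with centred libraries (2 more), 28 with a filter at 1 RPKM or none (7 more, of TFEB, ULK1 and NPC2, which the main filter left out), and 25 with only the groups compared (1 more was gained). With the filter on the mean of the 12 libraries, 33 of the 33 calls it could test held. Counts that moved by over 1.5 times were the following. At an adjusted p under 0.001, the members higher were 5 with ATRA, 5 in the combination against untreated cells and 3 against palbociclib, and those lower were 0 with ATRA and 0 in the combination. Centring, which moved the median of all genes by up to 0.076, left 0 lower with ATRA and 0 in the combination. With only the groups compared, 8 were higher in the combination. With the replicate block, 3 were higher with palbociclib and 1 was lower in the combination against palbociclib. Leaving out 1 library gave 7 to 13 higher and 0 to 1 lower with ATRA, 8 to 14 and 0 to 1 in the combination against untreated cells, and 5 to 9 and 0 in the combination against palbociclib, while the comparisons of palbociclib with untreated cells and of the combination with ATRA, and the departure from additivity kept 0 in each direction. The cause of these shifts was not tested. The replicate block gave 15 higher with ATRA and 16 in the combination against untreated cells, where NAGLU, TPP1 and SQSTM1 were gained, and no call was gained in the combination against ATRA or in the departure from additivity. As the share of all tested genes called with the block is not given here, these gains cannot be read as a trait of the set. Untreated libraries correlated best with treated libraries of their own number in 18 of 18 cases, a hint from the data at pairing, although r did not exceed 0.1 in every pair. Rounding to whole RPKM limits all statements on genes under about 5 RPKM.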
